A study of Mus musculus with 2 samples.

Results

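The nuclear-encoded subunits of mitochondrial complexes II, III, IV and V were described in adult mouse liver from gene and transcript tables. Members were taken by symbol from the GENCODE annotation: nuclear protein-coding genes named Sdha to Sdhd, Cyc1, or beginning with Uqcr, with Cox and a digit from 4 to 8, or with Atp5. Of 49 annotated genes that match, 48 were listed in the tables, out of 43346 genes in all and 21461 nuclear protein-coding genes. Complex II contributed 4 members, complex III 9, complex IV 18 and complex V 17. The rule itself uses symbols and no measured value. The symbol rule also takes in paralogs used in heart, muscle or testis, and Atp5s, which is not a subunit of the enzyme.

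Both libraries belong to the only group of the study, wild-type liver of 8-week C57BL/6J mice, an inbred laboratory strain, with tissue of male and female littermates pooled. They are labelled biological replicates 1 and 2 and carry the same donor identifier. The sources used here do not say whether separate animals were used. Spread between them may therefore be technical. Polyadenylated RNA over 200 nucleotides was read as stranded pairs of 76 nucleotides, with spike-in RNAs added. The labels also call the molecule total RNA.

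Complexes II to IV pass electrons from succinate and ubiquinol to oxygen, and complexes III and IV pump protons that drive the ATP synthase, complex V. Complex II is built only from nuclear genes, while complexes III, IV and V each join nuclear subunits to a core made in the mitochondrion. Several nuclear subunits of complex IV exist as a liver type and a heart or muscle type, encoded by separate genes.

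Of 60770411 estimated reads in replicate 1 and 61688916 in replicate 2, 693853 and 728798 fell on the members. Levels are given in TPM, a transcript abundance that divides reads by effective transcript length, so that values can be compared between genes. Hepatocyte markers (Alb, Apoa1 and 6 others) summed to 52716 and 54242 TPM and all 8 were at 1 TPM or more. Kupffer cell markers summed to 159 and 269 TPM and red cell markers to 1290.2 and 2109.6 TPM, both sums higher in replicate 2. The red cell sum was carried by globin genes, led by Hba-a2 at 505 and 747 TPM. Among the red cell markers Alas2 alone went the other way, at 40.3 and 35.1 TPM. In bulk tissue, fewer cells of a type and less RNA per cell cannot be told apart.

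The members were abundant. Together they held 2.29% and 2.31% of TPM in replicates 1 and 2 (2.30% ± 0.0141, SD, n = 2). Complex V held 0.894% ± 0.0397, complex IV 0.771% ± 0.0318, complex III 0.519% ± 0.00177 and complex II 0.113% ± 0.00805 of TPM. Restricted to protein-coding transcripts, the order of the leading complexes differed: complex IV then held 0.788% and 0.741%, and complex V 0.653% and 0.629%. Atp5a1 and Atp5b, described further on, differed most between these sums. At 1 TPM or more in both libraries, 42 of 48 members were detected, a share of 87.5%, against 47.4% of nuclear protein-coding genes. Of the members, 34 reached 100 TPM and 8 reached 1000 TPM in both libraries. The detected members had a median of 332 TPM, against 10.8 TPM for detected nuclear protein-coding genes and 168 TPM for the 35 nuclear subunits of complex I. By comparison, the 6 mitochondrially encoded subunits of complexes III to V held 5.70% and 4.76% of TPM.

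**Figure D1:**
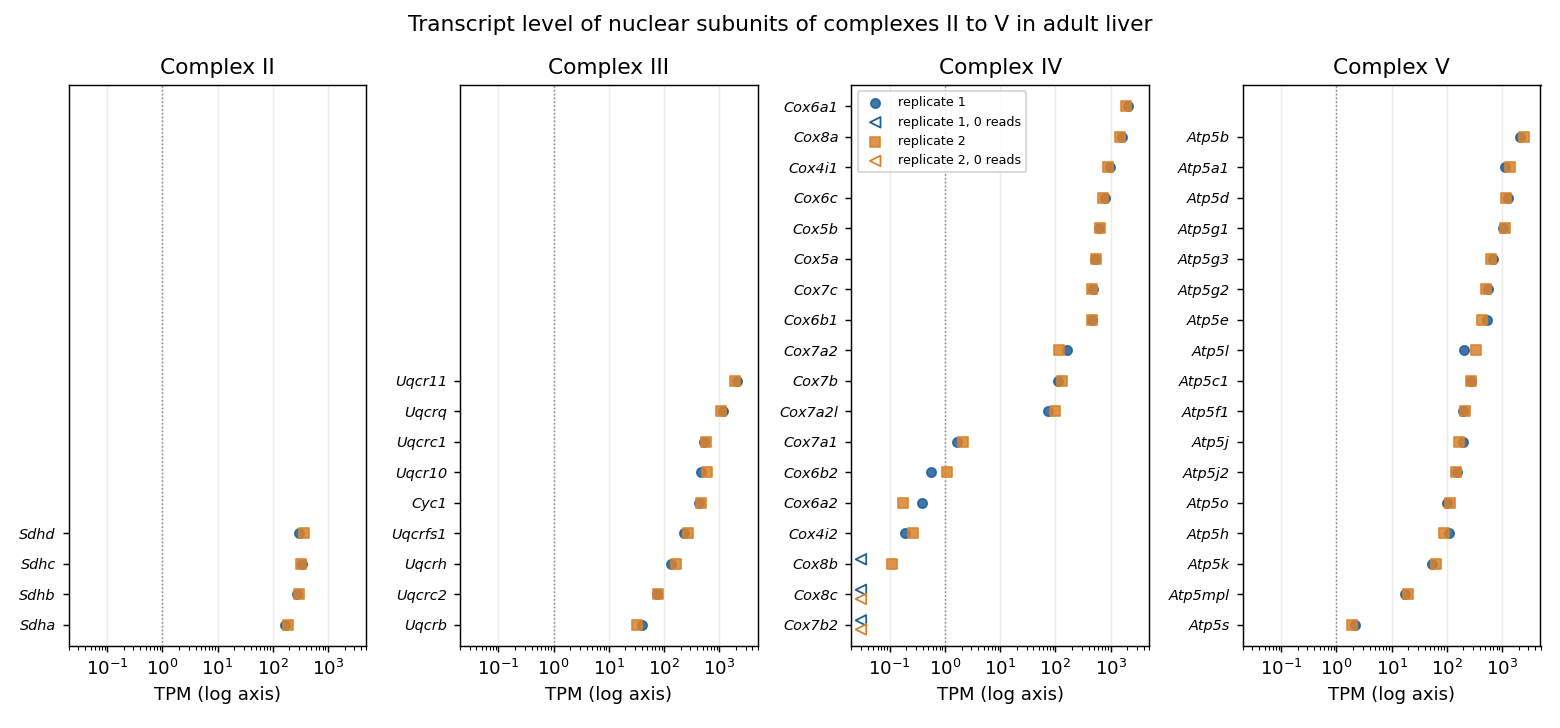
Transcript level in TPM (log axis) of all 48 members by complex, with replicate 1 as circles and replicate 2 as squares; open triangles at the left edge mark 0 reads and the dotted line marks 1 TPM. Complex II lies between 167 and 371 TPM, whereas complex IV runs from 0 reads for Cox7b2 and Cox8c to 2108 TPM for Cox6a1.

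The 4 subunits of complex II, succinate dehydrogenase, lay close together. The flavoprotein gene Sdha, which carries the site of succinate oxidation, had 167 and 193 TPM in replicates 1 and 2. Sdhb, the iron-sulfur subunit, had 272 and 299 TPM. The membrane anchors, which bind ubiquinone, stood slightly higher: Sdhc had 338 and 323 TPM, and Sdhd had 295 and 371 TPM. Their mean levels differed by at most 1.85-fold, the smallest span of the 4 complexes, over the fewest genes. Among detected members, the spans of complexes IV and V reach down to the muscle type Cox7a1 and to Atp5s. The spans are therefore not matched between complexes.

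Complex III, cytochrome bc1, covered a range of mean levels of 56.3-fold, set mainly by its small subunits. The redox subunits were intermediate, cytochrome c1 (Cyc1) at 429.6 and 476 TPM and the Rieske iron-sulfur protein (Uqcrfs1) at 233 and 270 TPM. The core subunits, which are related to mitochondrial processing peptidases, differed from each other: Uqcrc1 had 523 and 583 TPM and Uqcrc2 had 75.9 and 77.8 TPM. The small subunits Uqcr11 and Uqcrq were the highest of the complex. Uqcr11 had 2113 and 1901 TPM, and Uqcrq had 1181 and 1061 TPM. Uqcr10 had 476 and 609.8 TPM, and the hinge protein gene Uqcrh, which bridges the complex and cytochrome c, had 132 and 166 TPM. Uqcrb, a subunit near the ubiquinone site, was the lowest at 39.4 and 31.9 TPM. Small subunits were thus found at both ends of the range, and the libraries placed these genes at the same ends.

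In complex IV, cytochrome c oxidase, 11 liver or general type subunits stood at 74.1 TPM or more in both libraries, apart from 7 paralogs at 2.08 TPM or less. Cox6a1 led with 2108 and 1926 TPM, ranked 48 among nuclear protein-coding genes by mean TPM, and Cox8a followed with 1624 and 1476 TPM. Cox4i1, the largest nuclear subunit and a site of regulation by adenine nucleotides, had 974 and 912 TPM. Cox6c had 793 and 737 TPM, Cox5b, which binds zinc, 626 and 631 TPM, and Cox5a 521 and 536 TPM. Cox7c and Cox6b1 were close to each other, Cox7c at 475 and 467 TPM and Cox6b1 at 466 and 454 TPM. The lowest of the general subunits belonged to the Cox7 family. Cox7a2 had 162 and 117 TPM and Cox7b had 112 and 132 TPM. Cox7a2l, a relative of Cox7a2 described as a factor of supercomplexes of complexes III and IV, had 74.1 and 97.9 TPM. Its transcript Cox7a2l-201, with a coding length of 333 bases, held 92.7% and 92.3% of that TPM. Cox7a2l-202, with 402 bases, held the remainder. Whether the product joins these complexes in this strain was not tested. No general subunit overlapped any of the 7 restricted paralogs in level.

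In complex V, the 5 subunits of the F1 head summed to 5306 and 5775 TPM and the 3 genes of the c ring to 2315 and 2288 TPM. The 4 peripheral stalk genes summed to 607 and 584 TPM and the 4 small membrane subunits to 431 and 575 TPM. The catalytic beta subunit Atp5b had 2083 and 2467 TPM and ranked 39 among nuclear protein-coding genes by mean TPM over all its transcripts, the highest of all members by that mean, although Uqcr11 and Cox6a1 were above it in replicate 1. The alpha subunit Atp5a1 had 1117 and 1413 TPM, and the delta subunit Atp5d had 1304 and 1193 TPM. The epsilon subunit Atp5e had 530.4 and 432 TPM and the gamma subunit Atp5c1, the rotating shaft, 271 and 269.9 TPM. The c ring, through which protons pass, is encoded by 3 genes whose mature proteins are the same in mammals. Atp5g1 had 1054 and 1119 TPM, Atp5g3 had 700.1 and 645 TPM, and Atp5g2 had 561 and 524 TPM, so that the order of the 3 genes was the same in both libraries.

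The peripheral stalk, which holds the head against rotation, stood lower, with Atp5f1 (subunit b) at 198 and 212 TPM, Atp5j (F6) at 197 and 169 TPM, Atp5o (the oligomycin sensitivity protein) at 102 and 114 TPM and Atp5h (subunit d) at 109.9 and 88.6 TPM. Atp5o and Atp5h overlapped across the libraries. Among the membrane subunits, Atp5l (subunit g) had 204 and 345 TPM and Atp5j2 (subunit f) had 155 and 146 TPM. Atp5k (subunit e) had 54.7 and 63.0 TPM, and the proteolipid gene Atp5mpl had 17.2 and 20.3 TPM. Atp5s had 2.21 and 1.90 TPM, the lowest of the complex V symbols. Over the 42 detected members, the Spearman correlation of TPM with effective length was -0.03 in replicate 1 and -0.04 in replicate 2, a description across genes that share a library.

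The liver types of the subunit genes of complex IV exceeded their heart or muscle types by 75.0-fold or more in mean TPM. The coding sequences of the 3 such genes and their heart or muscle types are shown because the comparison rests on reads being told apart between them. They were read from GENCODE M21 transcripts, up to the stop codon, the last 240 bases for Cox6a1 and Cox6a2 and the whole coding sequence for the others. Bases are in capitals where a global alignment of both coding sequences found no identical base in the partner.
Cox6a1-201: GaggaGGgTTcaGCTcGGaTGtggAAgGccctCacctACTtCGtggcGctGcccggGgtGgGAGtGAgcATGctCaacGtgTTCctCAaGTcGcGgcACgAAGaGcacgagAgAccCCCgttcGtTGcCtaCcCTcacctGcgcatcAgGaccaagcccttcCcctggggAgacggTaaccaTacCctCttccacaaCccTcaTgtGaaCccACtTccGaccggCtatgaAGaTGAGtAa
Cox6a2-201: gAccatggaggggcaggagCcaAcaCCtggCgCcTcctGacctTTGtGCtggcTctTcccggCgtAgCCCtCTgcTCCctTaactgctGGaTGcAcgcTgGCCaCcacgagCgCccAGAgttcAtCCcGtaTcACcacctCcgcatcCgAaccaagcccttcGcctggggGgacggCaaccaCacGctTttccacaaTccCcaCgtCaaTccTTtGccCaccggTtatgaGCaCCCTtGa
Cox7a2-201: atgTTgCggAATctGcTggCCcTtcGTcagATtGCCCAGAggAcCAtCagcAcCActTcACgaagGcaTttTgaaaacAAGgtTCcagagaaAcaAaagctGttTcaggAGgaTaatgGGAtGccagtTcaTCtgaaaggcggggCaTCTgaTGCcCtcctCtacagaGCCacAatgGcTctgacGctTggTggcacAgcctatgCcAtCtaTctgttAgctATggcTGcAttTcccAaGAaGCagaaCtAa
Cox7a1-201: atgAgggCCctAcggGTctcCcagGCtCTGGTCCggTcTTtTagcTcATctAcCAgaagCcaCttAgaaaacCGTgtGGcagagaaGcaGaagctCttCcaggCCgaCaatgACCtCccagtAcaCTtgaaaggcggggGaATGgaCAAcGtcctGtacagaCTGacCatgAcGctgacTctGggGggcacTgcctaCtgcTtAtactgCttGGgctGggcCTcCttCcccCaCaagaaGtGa
Cox8a-201: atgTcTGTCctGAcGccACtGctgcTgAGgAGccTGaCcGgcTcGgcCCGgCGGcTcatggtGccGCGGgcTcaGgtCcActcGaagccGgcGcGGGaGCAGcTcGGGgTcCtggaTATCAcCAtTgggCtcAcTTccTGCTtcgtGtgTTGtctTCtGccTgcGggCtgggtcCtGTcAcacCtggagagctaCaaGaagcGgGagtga
Cox8b-201: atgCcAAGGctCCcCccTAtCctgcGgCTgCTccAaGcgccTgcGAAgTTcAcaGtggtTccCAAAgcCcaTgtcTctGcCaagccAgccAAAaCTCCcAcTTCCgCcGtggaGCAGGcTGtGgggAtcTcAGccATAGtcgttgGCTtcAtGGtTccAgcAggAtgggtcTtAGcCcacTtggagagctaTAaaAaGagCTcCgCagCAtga
Over the whole coding sequences, identical bases filled 59.4% of aligned columns for Cox6a1 and Cox6a2, 63.1% for Cox7a2 and Cox7a1, and 55% for Cox8a and Cox8b. The longest identical run was 12 bases for Cox6a1 and Cox6a2, 12 for Cox7a2 and Cox7a1, and 10 for Cox8a and Cox8b, all far shorter than a read of 76 nucleotides.

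Cox6a1 (chr5:115345642-115348981, minus strand, GRCm38) held 39383 and 37208 reads, whereas Cox6a2 (chr7:128205435-128206387, minus strand) held 9 and 4 reads. In TPM, Cox6a1 had 2108 and 1926, against 0.39 and 0.17 for Cox6a2, the type used in heart and skeletal muscle. The liver type was 7204-fold higher by mean TPM, with a 95% interval of 4213 to 13529 that covers counting error of the 13 Cox6a2 reads only. Single libraries gave 5405-fold in replicate 1 and 11329-fold in replicate 2, and the intervals of both libraries overlapped.

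Cox8a (chr19:7215153-7217616, minus strand) held 28245 and 26600 reads, and Cox8b (chr7:140898945-140900446, minus strand), the heart and muscle type in rodents, held 0 and 1 read. In replicate 1, Cox8a at 1624 TPM was at least 4585-fold higher than Cox8b, whose limit of 3 reads corresponds to 0.354 TPM. In replicate 2 the single Cox8b read gave 0.11 TPM against 1476 TPM for Cox8a, a ratio of 13418 with an exact interval of 2393 to 526683.

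The narrowest difference was that of Cox7a2 (chr9:79755361-79759878, minus strand) and Cox7a1 (chr7:30184144-30186078, plus strand). Cox7a2 had 162 and 117 TPM on 4458 and 3296 reads, against 1.63 and 2.08 TPM on 14 and 19 reads for Cox7a1. The ratio was 99.2 in replicate 1 and 56.0 in replicate 2, and 75.0 by mean TPM (95% interval 53.4 to 109, counting error of 33 Cox7a1 reads). Cox7a1 was the only heart or muscle type above 1 TPM and made up 0.998% and 1.75% of the TPM of both genes in replicates 1 and 2. Between the libraries, Cox7a2 was higher in replicate 1 under each of the 4 scalings used, whereas the difference of Cox7a1 did not pass the test described further on (adjusted p = 0.773, exact binomial test).

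Markers of muscle were near 0 in the same libraries. The 9 skeletal muscle markers summed to 0.72 and 0.77 TPM, none was at 1 TPM in both libraries, and the myosin heavy chains Myh1, Myh2 and Myh4 had 0 reads. The 7 heart muscle markers summed to 1.65 and 2.18 TPM, led by Tnni3 at 0.68 and 1.49 TPM, with Nppa at 0 reads. Smooth muscle markers summed to 12.1 and 12.4 TPM and were led by Tagln at 5.05 and 6.07 TPM. Brown fat markers summed to 5.48 and 4.22 TPM, carried by Elovl3 at 3.50 and 2.40 TPM and Ppargc1a at 1.94 and 1.82 TPM; Cidea had 0 reads and Ucp1 had 0.04 and 0 TPM. The part of these cell types in the reads of Cox7a1, Cox6a2 and Cox8b was not tested.

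The other restricted paralogs were also near or at 0. Cox4i1 was 4191-fold higher by mean TPM (95% interval 2399 to 8111) than Cox4i2, a type of lung and hypoxic cells, which had 0.19 and 0.26 TPM on 5 and 7 reads. Cox6b1 was 558-fold higher (386 to 839.7) than the testis type Cox6b2 at 0.56 and 1.09 TPM on 8 and 20 reads. The testis types Cox7b2 and Cox8c had 0 reads in both libraries. Cox7b was therefore at least 644-fold and 789-fold higher than Cox7b2 in replicates 1 and 2, and Cox8a at least 7594-fold and 7199-fold higher than Cox8c. Of the 5 testis markers, which summed to 0.77 and 0.14 TPM, Prm1 led at 0.58 and 0.14 TPM and 3 had 0 reads.

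**Figure D2:**
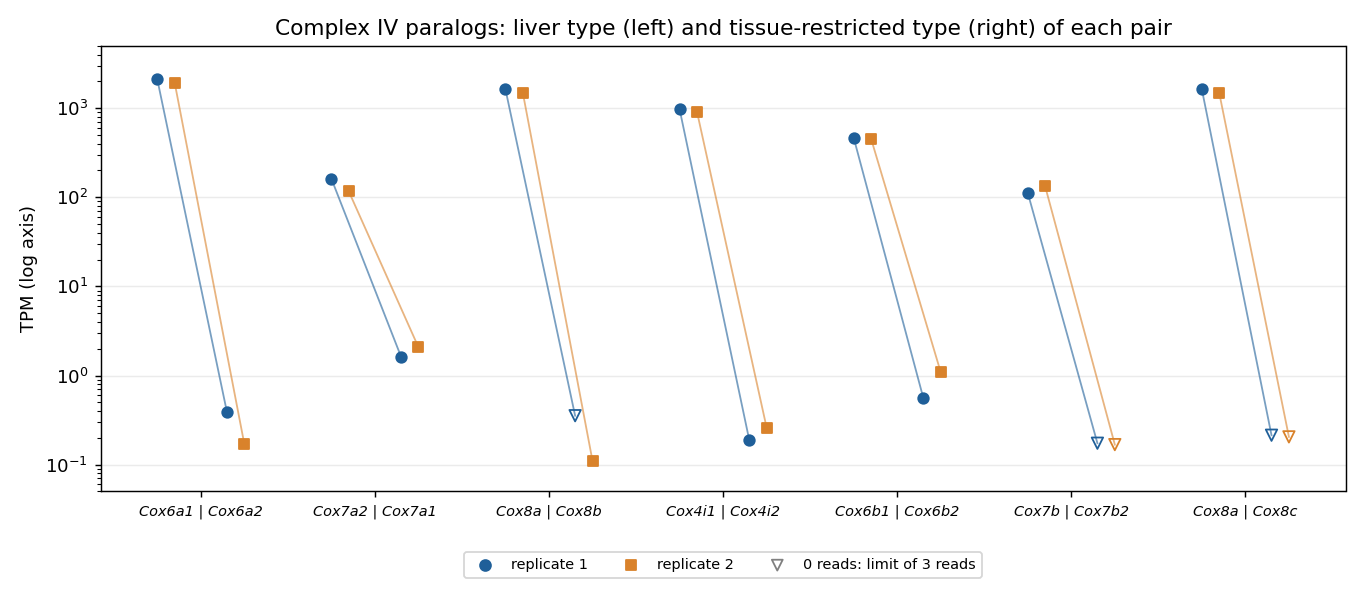
TPM (log axis) of the general or liver type, left, and the tissue-restricted type, right, of 7 complex IV comparisons, in replicate 1 (circles) and replicate 2 (squares); open triangles mark the limit of 3 reads where a gene had 0 reads. Cox7a1, at 1.63 and 2.08 TPM, is the highest of the restricted types, and its line to Cox7a2 is the shortest.

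Most members kept the same leading transcript in both libraries, as did most nuclear protein-coding genes at their level. Of the 40 members at a mean of 10 TPM or more, 31 had more than 1 annotated transcript, and 29 of these had the same most abundant transcript in both libraries. Over nuclear protein-coding genes at this level, 90.8% kept the same one. That transcript held 90% or more of the gene's TPM in both libraries in 19 of 31 members, a share of 61.3%, against 24.1% of such genes. Its median share was 95.8% and 94.2% in replicates 1 and 2 in members, against 71.5% and 70.4% over all such genes. The exceptions with different leading transcripts were Atp5c1 and Atp5j2. Atp5j2-202 held 48.7% and 45.8%, and Atp5j2-201, with a shorter coding region, 41.8% and 48.2%. Uqcrq was split between Uqcrq-203 at 55.8% and 48.3% and the longer Uqcrq-201 at 39.8% and 47.7%, which share a coding length of 246 bases. Atp5d was split between Atp5d-201 at 59.3% and 57.5% and Atp5d-202 at 38.9% and 40.7%. The coding lengths of these Atp5d transcripts were 504 and 363 bases.

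Atp5a1 and Atp5b, the subunits that form the catalytic sites of ATP synthase, were the 2 members with less than 50% of their TPM on protein-coding transcripts in both libraries. Coding transcripts of Atp5b held 32.9% and 24.8% of its TPM, or 686 and 611 TPM, in replicates 1 and 2. The remainder lay mainly on Atp5b-207, a non-coding transcript of 343 bases with 35.9% and 41.0%, and on the retained intron transcript Atp5b-205 with 27.9% and 31.3%. For Atp5a1, coding transcripts held 39.0% and 30.1%, or 436 and 425 TPM, and the retained intron transcript Atp5a1-203 of 765 bases held 58.5% and 63.8%. In estimated reads, which are not divided by length, coding transcripts held more: 63.1% and 53.2% for Atp5b and 71.6% and 62.6% for Atp5a1. Both coding shares were lower in replicate 2. Counted on coding transcripts, Atp5b stood below Cox6a1, Uqcr11, Cox8a, Atp5d, Uqcrq, Atp5g1, Cox4i1, Cox6c and Atp5g3 in both libraries.

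Coding transcripts held 90% or more of TPM in both libraries in 34 of the 40 members. The other 4 exceptions were smaller. Atp5f1 had 98.3% in replicate 1 and 82.2% in replicate 2, where its retained intron transcript Atp5f1-205 held 16.0%, against 1.13% in replicate 1. Atp5k had 88.5% and 81.9%, Uqcr10 88.7% and 89.8%, and Atp5j 89.3% and 89.2%. Coding shares were not counted over other nuclear protein-coding genes at this level. The 34 members, and the low shares of Atp5a1 and Atp5b, therefore have no background here.

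**Figure D3:**
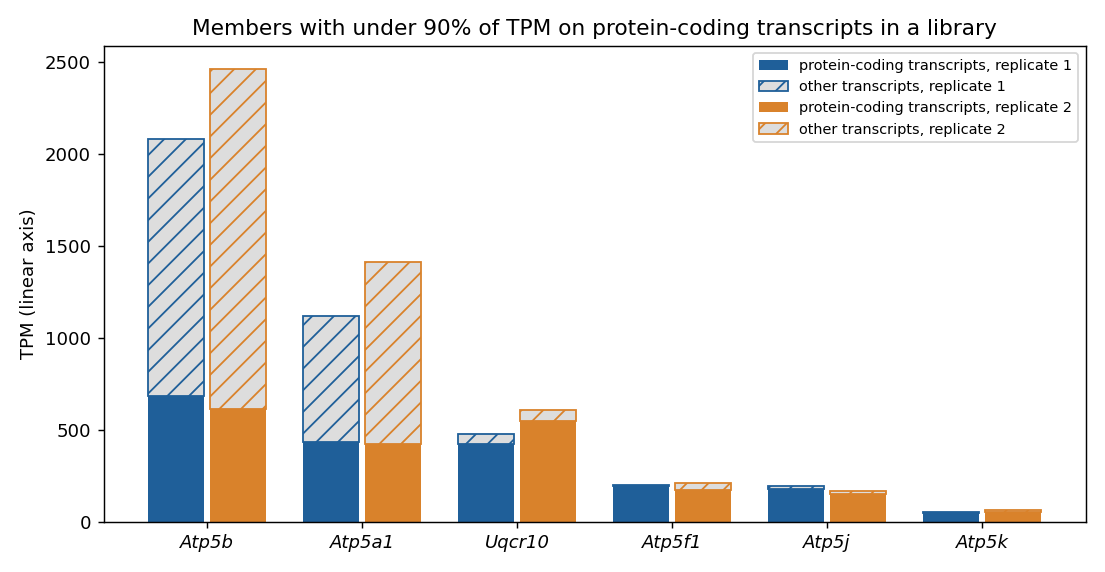
TPM (linear axis) on protein-coding transcripts (filled) and other transcripts (hatched, stacked above) in replicate 1 (blue, left bar) and replicate 2 (orange, right bar) for the 6 members with under 90% of TPM on coding transcripts in a library. The filled part is 686 and 611 TPM for Atp5b and 436 and 425 TPM for Atp5a1, with most of each bar hatched.

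The gamma subunit Atp5c1 (chr2:10056016-10080510, minus strand) is known in mammals as a liver splice type that includes a short exon near the end of the coding region and a heart type that skips it. The exon lies at chr2:10056770-10056806, 37 bases. Its use decides how the coding sequence ends, shown here as the last 24 shared bases followed, in capitals, by what differs, stop codon included.
Atp5c1-203: atcatctctggggctgctgctctgGATTAA
Atp5c1-201: atcatctctggggctgctgctctgTAA
The liver type, with the exon, thus codes for an additional codon, and the coding lengths were 894 bases for Atp5c1-203 and 891 bases for Atp5c1-201.

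The deposited values disagreed on the splice type. By the deposited percent per transcript, transcripts with the exon held 50.2% and 51.0% of Atp5c1 TPM in replicates 1 and 2, and Atp5c1-201 without it held 49.7% and 49.0%. Reads across splice junctions, summed over both libraries, gave another picture. The intron of 2834 bases that skips the exon had 2 reads, against 483 reads on the upstream intron of 2189 bases and 86 on the downstream intron of 608 bases that include it. Skipping reads were 0.412% of skipping plus upstream inclusion reads (95% exact interval 0.04998% to 1.48%) and 2.27% of skipping plus downstream inclusion reads (0.276% to 7.97%). The junctions were counted on the older build mm9 and matched by the lengths and shared ends of the introns. Which value is nearer to the true share was not tested. The other transcript and coding shares given here, those of Atp5a1 and Atp5b included, rest on deposited transcript values. They were not set against junction reads.

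**Figure D4:**
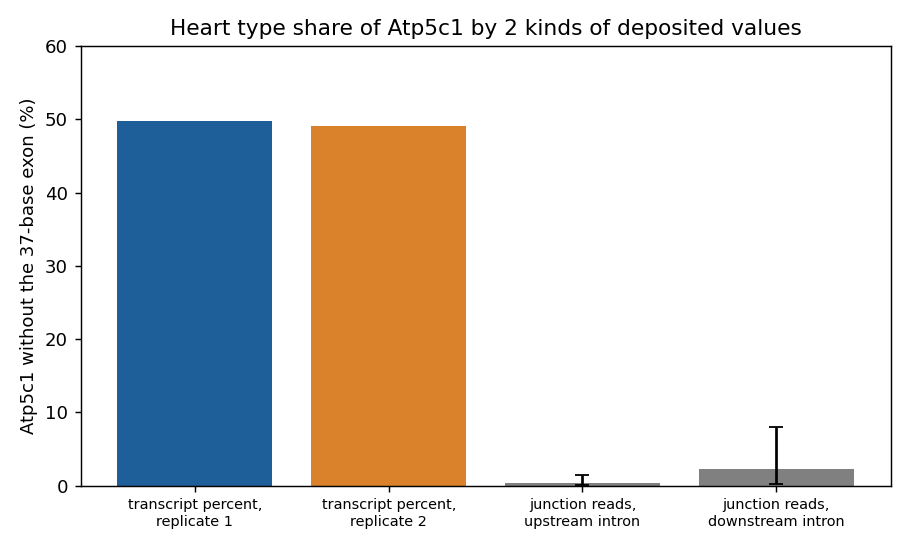
Share of Atp5c1 without the 37-base exon (percent), by the deposited percent per transcript in replicates 1 and 2 and by junction reads of both libraries summed, with 95% exact binomial intervals as bars on the junction values. The transcript percent is 49.7% and 49.0%, against 0.412% and 2.27% by junction reads.

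Processed pseudogenes share sequence with several members, so part of their reads can be assigned either way. An identical stretch of 76 bases or more with a listed pseudogene was found for 13 members, with 22 pseudogenes in all, and 35 members had none. The deposited posterior SD of the estimated count was above 1% of the count in 0 members. Cox7c shares sequence with Gm12338, a pseudogene with an effective length of only 7.76 and 15.3 bases. Gm12338 held 569 and 99.4 reads but was listed at 1504 and 132 TPM, against 475 and 467 TPM for Cox7c on 7869 and 7828 reads. The TPM of Gm12338 therefore exceeded that of Cox7c in replicate 1 on fewer reads. Gm10039 held 799 and 989 reads beside 23867 and 25251 reads of Atp5g1, and Gm10175 held 544 and 874 reads beside 14834 and 14219 reads of Atp5g2.

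The libraries were then compared with each other, replicate 1 over replicate 2, with an exact conditional binomial test, two-sided, on TMM-scaled reads, adjusted by Benjamini-Hochberg over all genes holding 20 reads or more. Passing it means a difference beyond counting error between these libraries. Of 14533 genes tested, 57.0% passed at an adjusted p of 0.05, and 36 of the 43 members tested did so. Of genes with 1000 or more reads in both libraries together, 71.8% passed, so that depth bears on this share. Of the members, 24 were higher in replicate 1, against 29.4% of all genes tested, and 12 were higher in replicate 2, against 27.7%. The median log2 ratio of members was 0.10, and that of all genes was 0.00. The split of directions depended on the scaling: with total reads 14 members were higher in replicate 1 and 19 in replicate 2, and with spike-in totals 13 and 21. These scalings moved the median of all genes to -0.13 and -0.15. By complex, with TMM, 1 member of complex II was higher in replicate 1 and 2 in replicate 2, in complex III 4 and 4, in complex IV 9 and 2, and in complex V 10 and 4. Across the 4 scalings, 25 members kept call and direction, 13 of them higher in replicate 1 and 12 higher in replicate 2. Of all genes tested, 57.0% to 59.3% passed under single scalings. The share of all genes that kept call and direction was not counted, so the 25 members have no background here.

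Differences were small in size. Over the 42 members at 1 TPM or more, the median difference between the libraries in TPM was 1.11-fold, against 1.17-fold over all 10701 such genes. The Pearson correlation of log2 TPM was 0.994 across members. Nuclear subunits of complex I were alike, with a median of 1.08-fold and 1 of 35 at 1.5-fold or more. The comparison with all genes is not matched for level: detected nuclear protein-coding genes had a median of 10.8 TPM, against 332 TPM for detected members. A TPM difference of 1.5-fold or more was seen in 1 of 42 members, against 14.9% of all genes at 1 TPM or more, and 13.8% passed the test as well. That member was Atp5l, the g subunit of the ATP synthase membrane part, with 204 TPM on 3205 reads in replicate 1 and 345 TPM on 5648 in replicate 2. Its TPM was 1.70-fold higher in replicate 2 (log2 ratio of reads -0.67, adjusted p = 2.30e-98, exact binomial test). The direction was the same under all 4 scalings. Its pseudogene Gm10221 held 222 reads in replicate 1 and 22.3 in replicate 2, and the part of this in the Atp5l difference was not tested. Cox7a2 had the largest difference toward replicate 1, a log2 ratio of reads of 0.59 (adjusted p = 8.60e-70, exact binomial test), with 162 and 117 TPM. Cox6b2 had a log2 ratio of -1.12 on 8 and 20 reads and did not pass (adjusted p = 0.108, exact binomial test).

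**Figure D5:**
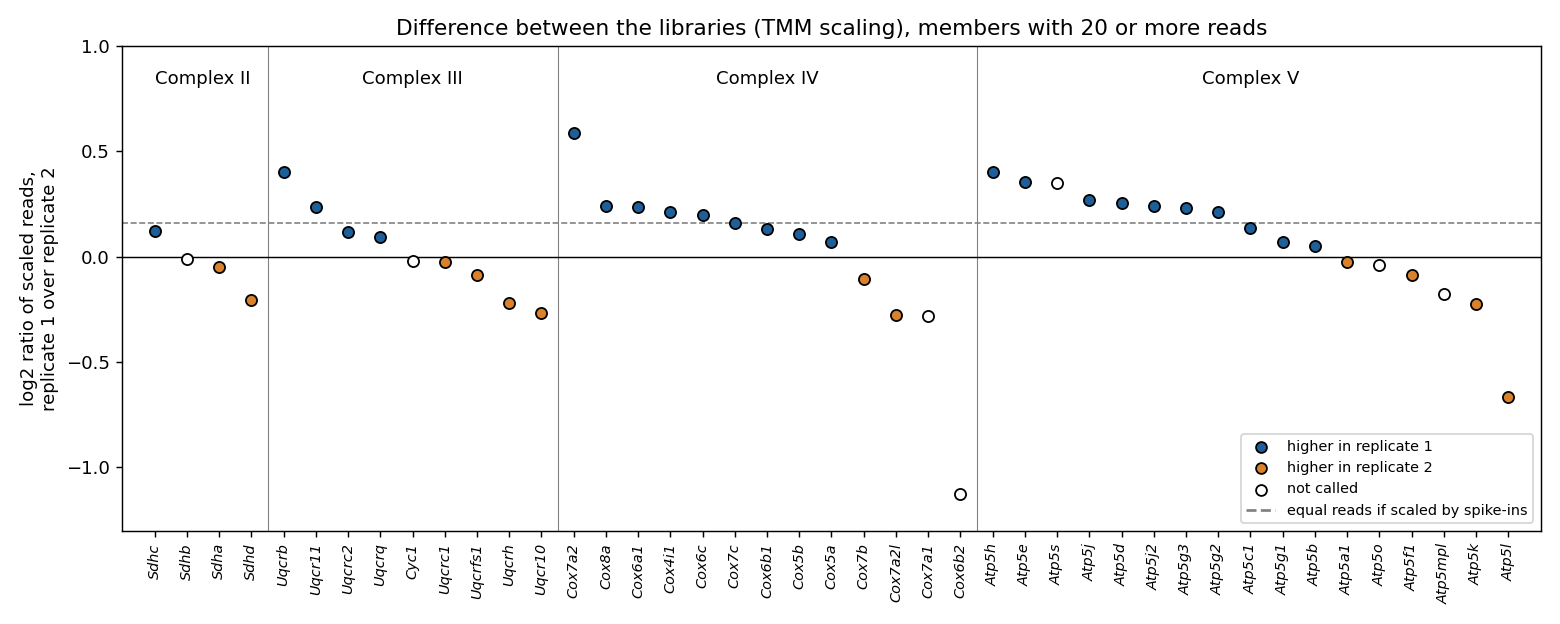
Log2 ratio of TMM-scaled reads, replicate 1 over replicate 2, for the 43 members holding 20 reads or more over both libraries, by complex; blue and orange points passed the exact binomial test, white ones did not. Most points lie within 0.5 of 0, with Cox7a2 highest at 0.59 and Cox6b2 lowest at -1.12; the dashed line at 0.16 marks equal reads under spike-in scaling.

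Assembly factors were lower in sum than the subunits they serve. Those of complex IV, 25 genes, summed to 1296 and 1174 TPM, against 7939 and 7489 TPM for the complex IV members, and were led by Sco2, a copper chaperone, at 333 and 299.9 TPM and Coa3 at 315 and 248 TPM. Of the 24 tested, 12 were higher in replicate 1 and 0 in replicate 2, with a median log2 ratio of 0.17, but with spike-in totals 8 were higher in replicate 1 and 4 in replicate 2. Pet117 had 0 reads. Those of complex V, 4 genes, were led by Fmc1 at 251 and 189 TPM and Tmem70 at 30.1 and 30.8 TPM, with 3 higher in replicate 1 and 0 in replicate 2. Among 6 factors of complex III, Uqcc2 had 84.9 and 67.9 TPM and Uqcc3 32.1 and 27.7 TPM, and 3 were higher in replicate 1 and 0 in replicate 2. Among 4 factors of complex II, Sdhaf1 had 13.6 TPM in both libraries and Sdhaf4 8.83 and 7.64 TPM, and 2 were higher in replicate 1 and 0 in replicate 2. These counts use TMM scaling, under which 29.4% of all genes tested were higher in replicate 1 and 27.7% in replicate 2. With spike-in totals the counts for complexes V, III and II became 1, 2 and 0 higher in replicate 1, with 0 in replicate 2. Of all genes that passed with spike-in totals, 26.4% were higher in replicate 1.

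Ndufa4, a complex IV subunit whose symbol falls outside the rule, had 897 and 1025 TPM, close to Cox4i1. Cycs, the somatic cytochrome c that carries electrons between complexes III and IV, was listed at 2.57 and 2.48 TPM on 368 and 307 reads. Cycs shares identical stretches with 3 listed pseudogenes, all at 0 reads. The posterior SD of its count was 3.29% and 3.73%, so part of its reads was shared with other entries. Only entries annotated as pseudogenes were listed for Cycs, so the entries sharing these reads were not identified. The level of Cycs is therefore uncertain. The testis cytochrome c Cyct had 0 reads. All 6 mitochondrially encoded subunits were higher in replicate 1 by the exact test with TMM scaling, whereas with spike-in totals 5 were higher in replicate 1 and 1 in replicate 2, with mt-Co1 at 25549 and 25252 TPM and mt-Co3 at 11518 and 9417 TPM. Of 8 regulators of mitochondrial biogenesis, Esrra led at 31.4 and 36.2 TPM and Yy1 followed at 12.6 and 11.0 TPM. With TMM scaling, 3 regulators were higher in replicate 1 and 1 in replicate 2. Over all genes tested, 29.4% were higher in replicate 1 and 27.7% in replicate 2 under that scaling.

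Promoter sequence was examined as a feature that the choice of members did not use. RefSeq windows on GRCm38.p6, 250 bases before to 50 after the start, were listed for 36 members. The motif of NRF1, a regulator of respiratory chain genes, searched on both strands as the letters GC followed by GCATGCGC, was present in 4 of 36 members (Atp5g2, Atp5k, Cox6a1 and Uqcrc1), a share of 11.1%, against 1.07% of 27025 genes with a window. The part GCATGCGC alone, which overlaps the full motif, was present in 7 of 36, a share of 19.4%, against 3.05%. The ETS motif CCGGAAG was present in 12 of 36, a share of 33.3%, against 9.93%. The YY1 motif AAGATGGCG was present in 2 of 36, a share of 5.56%, against 1.64%. Among genes detected in these libraries, the NRF1 shares were 12.1% of 33 members and 2.43% of 8194 genes, and the ETS shares 36.4% and 21.04%. The YY1 shares were then 6.06% and 3.99%, on 2 members. A match is a description of letters, not a binding site.

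The promoter of Cox6a1, the most abundant nuclear subunit of complex IV, is shown because it holds both motifs, with NRF1 and ETS letters in capitals (chr5:115348959-115349208, minus strand, 250 bases before the RefSeq start, 5′ to 3′).
Cox6a1 promoter: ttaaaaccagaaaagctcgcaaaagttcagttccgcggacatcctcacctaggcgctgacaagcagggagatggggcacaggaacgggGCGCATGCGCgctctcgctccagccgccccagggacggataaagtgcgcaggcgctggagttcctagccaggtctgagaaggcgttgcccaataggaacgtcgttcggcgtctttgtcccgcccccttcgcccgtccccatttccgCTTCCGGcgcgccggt
The liver type genes with a listed window had more CpG dinucleotides than their partners in the 3 cases of Cox7a2 with 20 against 7 for Cox7a1, Cox8a with 19 against 2 for Cox8b, and Cox6b1 with 17 against 10 for Cox6b2, whereas Cox7b had 5 and Cox7b2 had 10. The median was 19 in the 36 members, 7 over all windows and 21 over detected genes. Cox8a and Cox8b, which differ most, are shown with each CpG in capitals over the 250 bases before the start, chr19:7217617-7217866 and chr7:140900447-140900696, both minus strand.
Cox8a promoter: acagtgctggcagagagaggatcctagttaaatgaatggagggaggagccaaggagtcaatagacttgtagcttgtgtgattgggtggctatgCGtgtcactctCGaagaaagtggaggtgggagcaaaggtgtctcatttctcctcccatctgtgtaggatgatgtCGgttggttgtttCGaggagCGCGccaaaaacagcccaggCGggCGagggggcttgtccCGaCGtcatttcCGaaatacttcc
Cox8b promoter: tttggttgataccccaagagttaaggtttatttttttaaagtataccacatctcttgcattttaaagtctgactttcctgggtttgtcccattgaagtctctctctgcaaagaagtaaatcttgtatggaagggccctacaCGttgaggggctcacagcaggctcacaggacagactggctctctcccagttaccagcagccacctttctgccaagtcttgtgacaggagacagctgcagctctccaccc
Over these 250 bases Cox8a held 11 CpG and 52.8% G or C, and Cox8b held 1 CpG and 47.2%.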

How the data were processed

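A gene table and a transcript table were deposited per library, made on mm10 with GENCODE M4, per the accompanying notes. Quantifier and aligner were not given in the sources used here. Deposited estimated counts are reads per gene that need not be whole, since reads matching several genes are shared. Deposited TPM divides them by effective length and scales to a fixed sum with spike-ins included. The deposited percent is a transcript's share of its gene's TPM, and the deposited posterior SD of the count is a score of that sharing. Deposited junction read counts are on mm9 and sum both libraries.

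Symbols, coordinates and transcript types came from GENCODE M21 on GRCm38 by stable identifier, for 42462 of 43346 genes. Spike-ins, 2.56% and 2.52% of TPM, stayed out of gene counts. TMM scaling of rounded estimated counts used edgeR 4.0.16 under R 4.3.3; DESeq2 1.42.0 size factors, total reads and spike-ins were alternatives. Each gene with 20 reads or more in both libraries together got an exact binomial test (scipy 1.17.1), with Benjamini-Hochberg adjustment at 0.05 and log2 ratios with a prior count of 0.5. The binomial test was tried on counts simulated with counting error alone, and the choice of most abundant transcript on made values. The other steps were not tried this way, and the simulation holds no further spread between libraries. Detected means 1 TPM or more in both libraries; a count of 0 allows 3 reads. Intervals are 95% exact and cover counting error alone, because reads carry no molecular identifiers. Ratios of reads and of TPM can differ in sign, since the reads are TMM-scaled and TPM is not. Effective length also differed between libraries: the median difference from full length was 188 and 178 bases. For some genes the listed length itself differed. Atp5b had a length of 1090 and 987 bases and an effective length of 901 and 809 bases. Its reads were called higher in replicate 1 (log2 ratio 0.05), although its TPM was 2083 and 2467. The contig file was not used here.

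All members are named. The members, lists and rules were chosen with earlier results of these data known. Atp5c1 junctions, coding shares of reads, coding sequences of the paralogs, named pseudogenes and the promoter windows of detected genes were looked at after the data were seen.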

Additional observations from a re-analysis of the deposited data

How the results depend on the processing

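The share of TPM held by all members, 2.30%, became 2.10% with full gene length, 2.28% with posterior mean TPM and 2.78% of nuclear protein-coding TPM. On the log2 scale, Cox6a1 over Cox6a2 was 12.81 and became 10.62 with a pseudocount of 1 TPM. Cox7a2 over Cox7a1 was 6.23 and became 6.83 with full length and 5.62 with that pseudocount. Cox8a over Cox8b was 14.78 and became 10.52 with it; without replicate 2 it has no value, since Cox8b then had 0 reads, and the ratio rests on 1 read in all. Members higher in replicate 1 numbered 24 under TMM, 14 under total reads and 13 under spike-in totals. Members higher in replicate 2 numbered 12, 19 and 21. Of all genes that passed, 51.5%, 30.6% and 26.4% were higher in replicate 1 under these scalings. The share of Atp5c1 without the exon, 49.38%, became 0.412% with junction reads, an alternative chosen after seeing the data. Of 20 alternatives for the shares of single complexes 7 moved the share beyond the spread of the libraries, and of 19 for the ratios of Cox4i1 and Cox6b1 to their paralogs and the Atp5l difference 5 did; the ratio of Cox6b1 over Cox6b2, 9.12, became 8.23 with posterior mean TPM. No ratio of a general or liver type to its paralog turned its direction. Detected members numbered 43 at 0.5 TPM and 40 at 5 TPM. No paired analysis was possible because the study has 1 group. Depth limits most the paralogs at 0 to 20 reads and the Atp5c1 junctions.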
